A study of Mus musculus with 12 samples.

Results

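The enzymes described here break down amino acids in the liver. They are 47 named genes of transamination, of the breakdown of aromatic, branched-chain and other amino acids, and of glycine, serine and sulphur amino acid metabolism. They were chosen by name, and a probe set counted for a gene where the array's annotation gave it that gene alone, under its current or an older symbol. Of the 47 genes, 45 had such a probe set, and 63 of the 22626 probe sets tested belonged to them. Acmsd, of tryptophan breakdown, and Amt, of the glycine cleavage system, were not analysed here. By the same rule the whole data set held 12393 genes.

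The series compared livers of 6 male Pctp-/- mice with those of 6 male wild-type littermates, all on an FVB/NJ background. Pctp encodes PC-TP, or StarD2, a lipid-binding protein that carries phosphatidylcholine between membranes. Both groups ate a standard rodent diet until 8 weeks of age and then 0.2% fenofibrate, a drug that activates the nuclear receptor PPARα, for 7 days, and their livers were taken at 9 weeks. Every animal had fenofibrate, so a difference between the groups is one between genotypes under the drug. No source used here gives the disrupted part of Pctp, the feeding state or the hour of collection.

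The liver is the main site where amino acids in excess of need are broken down. Transaminases pass the amino group to glutamate, the nitrogen goes to urea, and the carbon skeletons are burnt or used for glucose. Several of the enzymes rise in fasting and under glucagon and glucocorticoids, and in mice PPARα activation is known to lower a number of them. Many lie in mitochondria, some pairs of isoenzymes are split between cytosol and mitochondria, and several steps are confined to the periportal or the pericentral part of the lobule.

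Each liver was put on 1 array, whose median intensity lay between 84 and 91.2 in the authors' units. Pctp was read at 66.5 to 99.7 in the knockout and 2737 to 2954 in the wild type by its brighter probe set, as the labels have it. The hepatocyte markers Alb, Ttr, Apoa1, Apoa2, Fgb, Ahsg and Serpina1c were bright on every array, at 4769 or more, and 0 of these 7 passed the test. Some arrays stood apart. Wild-type replicate 4 read 406 for Acta1 and 393 for Mb, markers of skeletal muscle, and its summed muscle and adipose markers came to 1284, against 92.2 to 133 on the other arrays. Wild-type replicates 2 and 5 summed to 5750.0 and 5823 for 12 Kupffer cell and leukocyte markers, while the remaining wild-type arrays summed to between 2526 and 2919.5 and the knockout arrays between 3239 and 4242. In bulk tissue fewer cells of a type and less RNA per cell cannot be told apart. A measure of RNA integrity, the 5′ over 3′ log2 ratio of the beta-actin control probe sets, ran from -1.27 to -1.05 in the knockout and from -1.77 to -1.41 in the wild type (difference 0.39, two-sided exact permutation p = 0.00216, the smallest this design can give). The same ratio for Gapdh ran from 0.1 to 0.18 in the knockout and from -0.06 to 0.07 in the wild type. It differed by 0.11 (two-sided exact permutation p = 0.00216). RNA integrity and genotype therefore cannot be told apart in the results below.

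Most of the enzymes differed little between the genotypes. Of the 45 measured, 7 fell and 1 rose in the knockout at an adjusted p under 0.05 (limma, Benjamini-Hochberg adjustment over the 22626 probe sets), which is 15.6% lower. The share called lower was 5.24% over the 12393 genes and 7.97% over the 6687 genes with a mean intensity of at least 100, a brightness that 42 of the 45 enzymes reached. The share called higher was 6.46% over all genes and 9.78% over the brighter ones. The median log2 difference, knockout minus wild type, was -0.050 over the 45 enzymes and 0.015 over all genes, 27 of the 45 were below 0, and 30 of the 45 lay within 1.1-fold. Got1 was the 1 enzyme that changed by at least 1.5-fold. Differences are on the log2(intensity + 16) scale, and folds are derived from them.

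The enzymes that fell were Got1, Hgd, Prodh, Aass, Agxt, Shmt2 and Cdo1, and the enzyme that rose was Shmt1. They stand at separate steps: transamination of aspartate, tyrosine, proline and lysine breakdown, glyoxylate detoxification, serine and glycine interconversion, and cysteine oxidation. The groups did not overlap for 4 enzymes that were lower, Hgd, Agxt, Shmt2 and Kmo, and for 1 that was higher, Shmt1. Over all genes 3.12% were lower and 3.68% higher without overlap. Of the 6687 genes with a mean intensity of at least 100, 745 did not overlap, 345 of them lower. The count of falling enzymes depended on the arrays included. It was 3 (Got1, Hgd and Agxt) without wild-type replicates 2 and 5, those with high Kupffer cell markers, or without wild-type replicates 3 and 5. Shmt1 still rose in both cases. Over all probe sets the falling count also went down, from 1165 to 715 and to 574. The enzymes' count was 5 without wild-type replicate 4, the array with muscle markers, where 937 probe sets fell. With other single arrays left out the enzymes' count was 4 without wild-type replicate 5 or knockout replicate 1, 2 or 5. There 855 to 955 probe sets fell.

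**Figure D1:**
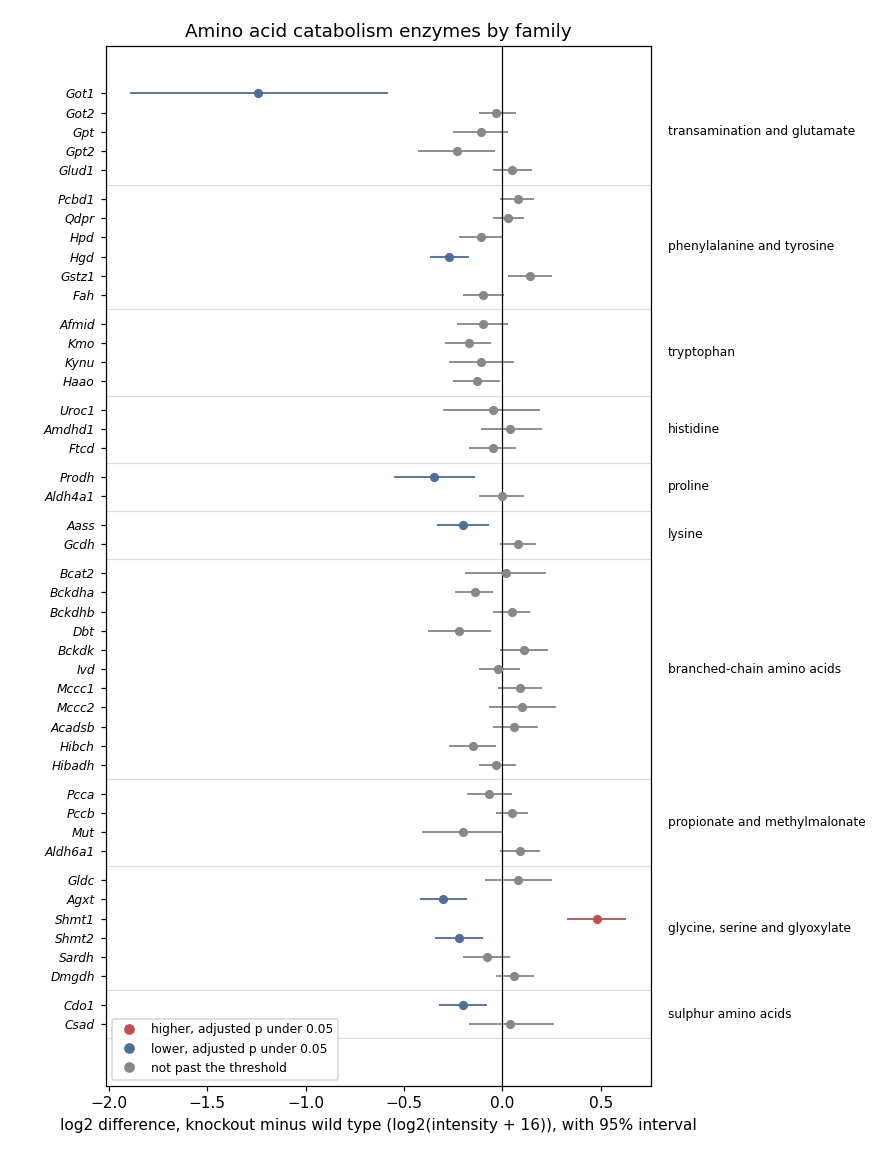
Log2 difference of each of the 45 measured enzymes, knockout minus wild type on the log2(intensity + 16) scale, with its 95% interval, grouped by pathway (6 arrays a group). Got1 lies far to the left at -1.24, Shmt1 to the right at 0.48, and most other points lie close to 0.

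The promoters of Got1, which fell most, of Hgd, which fell without overlap, and of Shmt1 and Shmt2 are shown. The brightest probe sets of Shmt1 and Shmt2 were called in opposite directions. The promoters are reference sequences of RefSeq on GRCm38.p6. Each runs from 250 bases before to 50 bases after a transcript start of the gene in that table and is read in the gene's own direction. For Hgd this start lies 411 bases inside the span of the gene given below, and for the other 3 it is the end of that span. They lie at chr19:43524556-43524855 (minus strand), chr16:37579903-37580202 (plus strand), chr11:60811216-60811515 (minus strand) and chr10:127522395-127522694 (minus strand). Capitals mark any of 6 motifs searched on both strands: TGATGNAA (the composite element of C/EBP and ATF factors), TGACG (one part of the cyclic AMP response element), TGTTCT (one arm of the glucocorticoid receptor's element), AGGTCA (one arm of nuclear receptor elements), CCAAT and TATAAA.
Got1: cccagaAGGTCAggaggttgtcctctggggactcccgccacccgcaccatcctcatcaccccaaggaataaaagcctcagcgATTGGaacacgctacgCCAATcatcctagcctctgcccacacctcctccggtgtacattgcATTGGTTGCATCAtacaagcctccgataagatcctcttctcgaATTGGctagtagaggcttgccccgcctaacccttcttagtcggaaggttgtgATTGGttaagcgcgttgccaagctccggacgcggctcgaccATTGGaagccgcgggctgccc
Hgd: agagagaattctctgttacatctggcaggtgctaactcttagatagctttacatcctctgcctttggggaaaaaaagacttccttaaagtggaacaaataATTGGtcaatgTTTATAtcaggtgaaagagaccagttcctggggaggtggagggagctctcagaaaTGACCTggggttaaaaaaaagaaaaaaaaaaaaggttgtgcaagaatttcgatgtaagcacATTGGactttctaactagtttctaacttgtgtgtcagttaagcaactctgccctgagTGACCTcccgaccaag
Shmt1: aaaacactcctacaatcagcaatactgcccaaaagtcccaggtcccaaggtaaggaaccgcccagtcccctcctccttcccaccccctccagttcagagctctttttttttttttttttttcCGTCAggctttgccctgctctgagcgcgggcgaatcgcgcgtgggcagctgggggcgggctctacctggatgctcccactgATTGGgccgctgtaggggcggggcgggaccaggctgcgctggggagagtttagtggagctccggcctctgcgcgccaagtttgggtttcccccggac
Shmt2: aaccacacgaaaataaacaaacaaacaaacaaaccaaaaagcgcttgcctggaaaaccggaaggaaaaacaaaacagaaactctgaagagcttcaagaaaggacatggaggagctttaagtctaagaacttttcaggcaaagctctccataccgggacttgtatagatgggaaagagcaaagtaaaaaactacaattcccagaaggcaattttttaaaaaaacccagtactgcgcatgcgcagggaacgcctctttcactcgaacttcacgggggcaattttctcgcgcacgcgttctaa
The Got1 promoter holds TGATGNAA on the opposite strand, read as TTGCATCA, starting 102 bases before the start, next to a CCAAT box that it meets without overlap. That motif is in 3.97% of 32851 promoters of this length and in 1 of 46 promoters of 40 of these enzymes. Got1 also holds 6 CCAAT boxes and 1 AGGTCA. The CCAAT letters are in 37.4% of the promoters of the table and in 23 of the 46, and AGGTCA in 16.3% of the table and 13 of the 46. Hgd holds 2 AGGTCA, 2 CCAAT and 1 TATAAA, Shmt1 holds 1 TGACG and 1 CCAAT, and Shmt2 holds none of these letters in this window. Of the other motifs, TGACG is in 20.8% of the table and 7 of the 46, the glucocorticoid receptor letters TGTTCT are in 19.0% and 8 of the 46, and TATAAA is in 13.6% and 5 of the 46. Such matches describe letters and say nothing about binding.

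Among the transaminases Got1 stood alone. Got1 encodes the cytosolic aspartate aminotransferase, which links aspartate and oxaloacetate outside the mitochondrion, and lies on chromosome 19 from 43499752 to 43524605 (GRCm38.p6). Its intensity ran from 195 over a median of 287 to 409.5 in the knockout and from 393 over 559 to 1305 in the wild type. The wild-type arrays were uneven: replicates 3 and 5 read 1305 and 1271, the other 4 between 393 and 559.8, and the lowest of them lay below knockout replicate 3. The means were 283 ± 78.6 and 754 ± 419 (SD, n = 6 each), a fall of 2.36-fold (log2 -1.24, SE 0.303, adjusted p = 0.0195, limma). Without wild-type replicates 3 and 5 the difference was -0.78 and still past the threshold (adjusted p = 0.0425). Without the muscle-marked wild-type replicate 4 it was -1.29 (adjusted p = 0.0295). The authors' deposited table gives Got1 a signed fold of -2.67 with an unadjusted p of 0.040123.

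Got2, the mitochondrial isoenzyme, was one of the brightest of the set and differed little, at 4484 ± 152 in the knockout and 4566 ± 225 in the wild type (SD, n = 6 each, log2 -0.03, 95% interval -0.12 to 0.07). Its other probe set was higher in the knockout by 0.17 without overlap (adjusted p = 0.0736, not past the threshold). Compared within each array, the log2 ratio of Got1 to Got2 was -3.95 ± 0.382 in the knockout and -2.74 ± 0.736 in the wild type (SD, n = 6 each). That difference of -1.21 had a two-sided exact permutation p of 0.00649, or 0.0195 adjusted over 9 pairs of enzymes or subunits. Without wild-type replicates 3 and 5 it was -0.76 and the adjusted p = 0.0644, no longer past the threshold.

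The alanine aminotransferases Gpt (cytosolic) and Gpt2 (mitochondrial) did not pass by their brightest probe sets, at -0.11 (95% interval -0.25 to 0.03) and -0.23 (-0.43 to -0.04). Gpt2 has 3 probe sets, all below 0, and 1 of them passed, at 1102 ± 145 in the knockout and 1419 ± 148 in the wild type (SD, n = 6 each, log2 -0.36, adjusted p = 0.0232). The within-array ratio of Gpt to Gpt2 differed by 0.12 between the genotypes (two-sided exact permutation p = 0.117, adjusted 0.15). In the wild type replicates 3 and 5 were also the 2 highest for Gpt2 and Hgd, so for 3 of 45 enzymes (6.67%), against 5.79% of all genes. Glud1, the glutamate dehydrogenase that frees ammonia in mitochondria, was at 0.05 (95% interval -0.05 to 0.15).

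**Figure D2:**
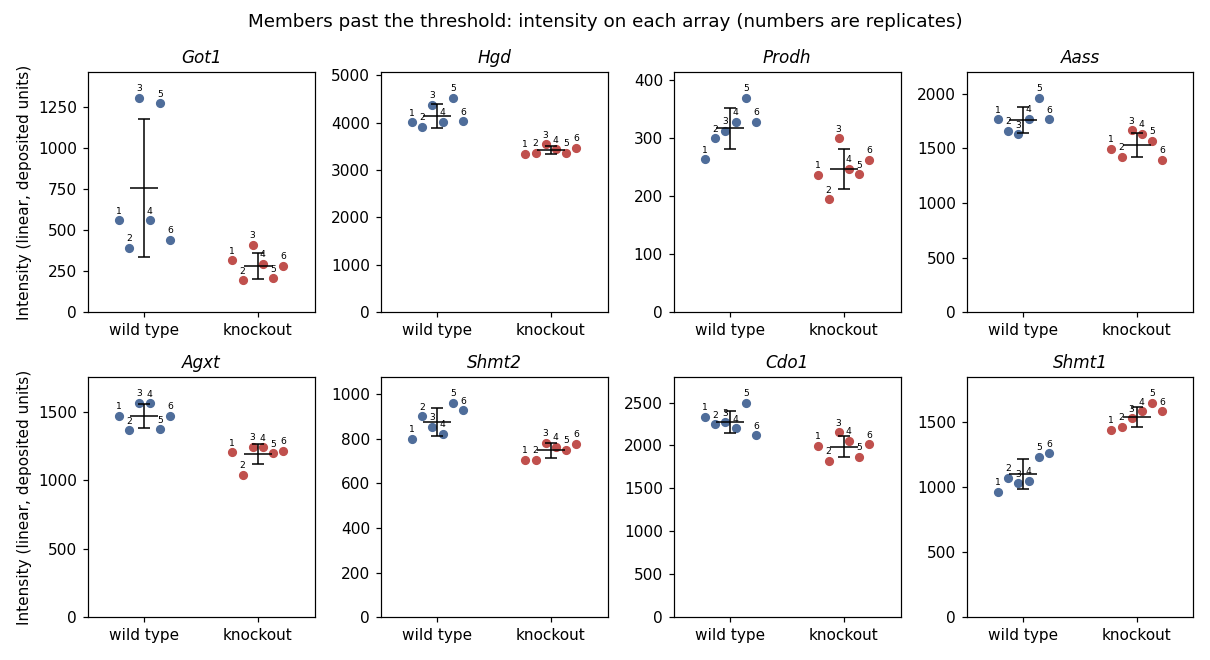
Intensity (linear, deposited units) of the 8 enzymes past the threshold on each array, with the replicate number beside each point and bars for the mean ± SD of 6 arrays. Got1 in the wild type splits into replicates 3 and 5 at 1305 and 1271 and the other 4 arrays at 559.8 or less, while Hgd, Agxt, Shmt2 and Shmt1 separate the genotypes with no overlap.

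In phenylalanine and tyrosine breakdown 1 of 6 enzymes fell. Hgd, which opens the ring of homogentisate, lies on chromosome 16 from 37579742 to 37632026. It read 3346 to 3549 with a median of 3402 in the knockout and 3910.0 to 4530.3 with a median of 4025 in the wild type. The means were 3422 ± 78.6 and 4145 ± 247 (SD, n = 6 each), and it fell 1.21-fold (log2 -0.27, SE 0.0468, adjusted p = 0.00367). This call held under each of 23 alternatives, with adjusted p from 0.000135 to 0.0199.

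The neighbouring steps of the tyrosine pathway went both ways within narrow bounds. Hpd, which makes homogentisate, was at -0.11 (95% interval -0.22 to 0.00), and Fah, the last step, at -0.10 (-0.20 to 0.01). Gstz1, which isomerises maleylacetoacetate between Hgd and Fah, read 3013 ± 80 in the knockout and 2741 ± 181 in the wild type (SD, n = 6 each), a difference of 0.14 with an adjusted p of 0.0932. Its call appeared with an added constant of 64 (adjusted p = 0.0463), among the brighter probe sets (0.0387), with a trended and robust variance (0.0265) and without wild-type replicate 1 (0.0437). Pcbd1 and Qdpr, which regenerate the cofactor tetrahydrobiopterin, were at 0.08 and 0.03.

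In tryptophan breakdown 0 of 4 enzymes passed, and all 4 were below 0, from -0.17 to -0.10. Kmo, the kynurenine hydroxylase, came nearest. It read 1784 to 1892 with a median of 1833 in the knockout and 1905 to 2348 with a median of 1993 in the wild type, so that the groups did not overlap (log2 -0.17, SE 0.0542, adjusted p = 0.0568). Its highest wild-type arrays were replicates 2 and 5, at 2348 and 2207, the same that read high for Kupffer cell markers. Without them the difference was -0.10 (adjusted p = 0.167). Leaving out the highest wild-type arrays shrinks such a difference whatever their cell content, so this does not test for Kupffer cells. Kmo passed under 6 of 23 alternatives, with adjusted p down to 0.0169. Haao, which oxidises hydroxyanthranilate, was at -0.13 (95% interval -0.25 to -0.01). Afmid, the formamidase, and Kynu, the kynureninase, were dim, with means under 100, and stood at -0.10 and -0.11. The ratio of Kmo to Kynu differed by -0.06 (two-sided exact permutation p = 0.517, adjusted 0.582 over 9 pairs).

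In histidine breakdown 0 of 3 enzymes passed. Uroc1, the urocanate hydratase, was at -0.05, with wild-type arrays from 897 to 1479, and its other probe set at 0.19 (adjusted p = 0.0579). Amdhd1, the imidazolonepropionase, and Ftcd, which hands the formimino group to folate, were at 0.04 and -0.05.

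Prodh and Aass, the first enzymes of proline and of lysine breakdown in mitochondria, both fell, and the second enzyme measured in each pathway did not pass. Prodh, proline dehydrogenase, ran from 195 over a median of 243 to 299.9 in the knockout and from 264 over 321 to 370.1 in the wild type, with overlap between knockout replicate 3 and wild-type replicates 1 and 2. The means were 247 ± 34.5 and 317 ± 35.1 (SD, n = 6 each), a fall of 1.27-fold (log2 -0.35, SE 0.0948, adjusted p = 0.0314). Aldh4a1, which completes the conversion of proline to glutamate, was at 0.00 (95% interval -0.12 to 0.11).

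Aass, the bifunctional synthase that condenses lysine with oxoglutarate and then releases glutamate, ran from 1398 over 1532 to 1666 in the knockout and from 1629 over 1767 to 1965 in the wild type. Its means of 1530.4 ± 110.2 and 1760.0 ± 118 (SD, n = 6 each) differed by -0.20 (SE 0.0606, adjusted p = 0.049), so it lies at the edge of the threshold and lost its call under 13 of 23 alternatives. Gcdh, which acts on glutaryl-CoA further down, was at 0.08 (95% interval -0.01 to 0.17). Prodh lost its call under 10 of the 23 alternatives, with adjusted p up to 0.129.

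Of the 11 genes of branched-chain amino acid breakdown 0 passed by their brightest probe sets, and their median was 0.015. Bckdha, Bckdhb and Dbt encode subunits of the branched-chain ketoacid dehydrogenase, the committed step, and Bckdk encodes the kinase that switches it off. Bckdha read 875 to 982 with a median of 924 in the knockout and 952 to 1057 with a median of 1036 in the wild type (log2 -0.14, SE 0.045, adjusted p = 0.0578). It passed under 6 of 23 alternatives, with adjusted p down to 0.0199. Dbt read 359 ± 30 and 422 ± 43 (SD, n = 6 each, log2 -0.22, adjusted p = 0.0723). Bckdhb was at 0.05 (95% interval -0.05 to 0.14) and Bckdk at 0.11 (-0.01 to 0.23).

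Within each array, ratios between probe sets of these genes differed between the genotypes. The log2 ratio of Bckdha to Bckdhb, which form the first component of the complex together, was -1.01 ± 0.0753 in the knockout and -0.82 ± 0.0341 in the wild type (SD, n = 6 each), without overlap. The difference of -0.19 had a two-sided exact permutation p of 0.00216, or 0.00972 adjusted over the 9 pairs. The ratio of Bckdha to its kinase gene Bckdk differed by -0.25 (exact permutation p = 0.0108, adjusted 0.0243), a call that was lost without wild-type replicates 3 and 5 (difference -0.25, adjusted p = 0.0644). These are ratios between probe sets, so their level has no meaning, and a change in them need not be one of the genes. Of 12 enzymes with several probe sets, 8 had all on the same side of 0, while those of Got2 stood at -0.03 and 0.17. The 5′ over 3′ log2 ratio of the beta-actin control probe sets differed by 0.39. The part of RNA integrity or probe set choice in the ratios of paired enzymes was not tested.

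**Figure D3:**
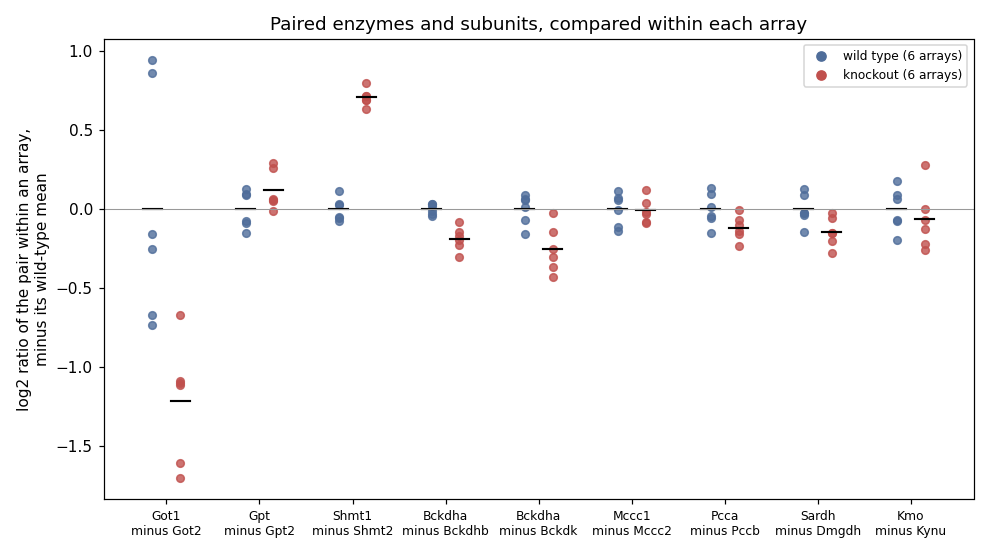
Log2 ratio of 2 enzymes or subunits within each array, drawn as the deviation from the wild-type mean of that pair, with 6 arrays a group and black lines for group means. Shmt1 to Shmt2 is shifted up by 0.71 and Bckdha to Bckdhb down by 0.19, both without overlap, and Got1 to Got2 is shifted by -1.21 with wide scatter. For Shmt1 to Shmt2 the lack of overlap follows from that of each gene alone.

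Bcat2, the mitochondrial branched-chain aminotransferase of the first step, was dim at 78.6 ± 13.4 and 77.1 ± 8.45 (SD, n = 6 each). Further down the pathway, Ivd and Acadsb, acyl-CoA dehydrogenases of leucine and isoleucine breakdown, were at -0.02 and 0.06. Mccc1 and Mccc2, the subunits of methylcrotonyl-CoA carboxylase, were at 0.09 and 0.10, and their ratio differed by -0.01 (exact permutation p = 0.877). Of the valine enzymes, Hibadh was at -0.03. Hibch, which hydrolyses hydroxyisobutyryl-CoA, depended on the probe set: the brighter one, whose name marks it as able to match several transcripts, was at -0.15 (adjusted p = 0.0932), and the dimmer one fell 1.31-fold from 291 ± 23.1 to 218 ± 23.9 (adjusted p = 0.00561, means ± SD with n = 6) without overlap. The authors' deposited table lists that dimmer one with a signed fold of -1.33.

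In the propionate and methylmalonate steps 0 of 4 passed by their brightest probe sets. Mut (Mmut in current nomenclature), the cobalamin-dependent methylmalonyl-CoA mutase, read 1203 ± 147 and 1388 ± 175 by that probe set (SD, n = 6 each, log2 -0.20, adjusted p = 0.194). Its other 2 probe sets fell, by 0.23 (adjusted p = 0.0422) and 0.21 (adjusted p = 0.0341) on the log2 scale, so the 3 were alike in size and unlike in scatter. The propionyl-CoA carboxylase subunit genes Pcca and Pccb were at -0.07 and 0.05, and their ratio differed by -0.12 (exact permutation p = 0.0584, adjusted 0.0876). Aldh6a1, the methylmalonate semialdehyde dehydrogenase, was at 0.09.

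Glycine, serine and glyoxylate enzymes held 3 of the 8 calls, Agxt and Shmt2 lower and Shmt1 higher, among 6 measured. Agxt encodes the aminotransferase that turns glyoxylate into glycine in mouse liver and so keeps it from becoming oxalate, and lies on chromosome 1 from 93135240 to 93145421. It read 1041 to 1244 with a median of 1209 in the knockout and 1364 to 1563 with a median of 1469 in the wild type, with no overlap. The means were 1189 ± 75 and 1466 ± 87.5 (SD, n = 6 each), a fall of 1.23-fold (log2 -0.30, SE 0.0569, adjusted p = 0.00595). The call held under each of the 23 alternatives, with adjusted p from 0.000833 to 0.0255.

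Shmt1 and Shmt2 encode the cytosolic and the mitochondrial serine hydroxymethyltransferase, which split serine into glycine and a one-carbon unit on folate. Shmt1, on chromosome 11 from 60788897 to 60811265, read 1438 to 1644 with a median of 1552 in the knockout and 961 to 1259 with a median of 1057 in the wild type. The groups did not overlap, and the means were 1538 ± 78.2 and 1099 ± 119 (SD, n = 6 each), a rise of 1.4-fold (log2 0.48, SE 0.0693, adjusted p = 0.00154). Shmt2, on chromosome 10 from 127517123 to 127522444, fell 1.17-fold, from 877 ± 63 to 748 ± 33.8 (SD, n = 6 each, log2 -0.22, SE 0.055, adjusted p = 0.0199), also without overlap. The within-array log2 ratio of Shmt1 to Shmt2 was 1.02 ± 0.0534 in the knockout and 0.32 ± 0.073 in the wild type (SD, n = 6 each), a difference of 0.71 (two-sided exact permutation p = 0.00216, adjusted 0.00972 over 9 pairs). Both genes already separated the groups, in opposite directions. The ratio therefore had to separate them too, and its p adds no further evidence.

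The probe sets of Shmt1 disagreed with each other. Besides 1425179_at, which stands for the gene, 1422198_a_at rose 1.67-fold, from 481 ± 52.2 to 813 ± 30.8 (adjusted p = 0.000112, means ± SD with n = 6). In contrast 1425177_at fell 1.29-fold, from 553 ± 80.5 to 425 ± 56.8 (adjusted p = 0.0353, means ± SD with n = 6), and 1425178_s_at was at 0.09 (adjusted p = 0.441). Shmt1 was the 1 member whose probe sets were called in opposite directions. The array annotation ties 1425177_at, 1425178_s_at and 1425179_at to the same transcript record and 1422198_a_at to another. Averaged over its 4 probe sets, Shmt1 was higher by 0.24 (adjusted p = 0.0426). The authors' deposited table lists 1422198_a_at and 1425179_at with signed folds of 1.69 and 1.4. The gene shares chromosome 11 with Pctp, 29.2 megabases away, as does Afmid at 27.8 megabases.

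The fall of Shmt2 rests on 1 of its 4 probe sets, 1455084_x_at, whose name marks possible cross-hybridisation. Of its other probe sets, 1426423_at was at -0.11 (adjusted p = 0.294), and 1434204_x_at and 1455985_x_at were dim, with no array above 17.4. Averaged over the 4, Shmt2 was lower by 0.15 (adjusted p = 0.122). Got1, Hgd, Prodh, Aass, Agxt and Cdo1 had 1 probe set each, so their falls could not be compared between probe sets.

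**Figure D4:**
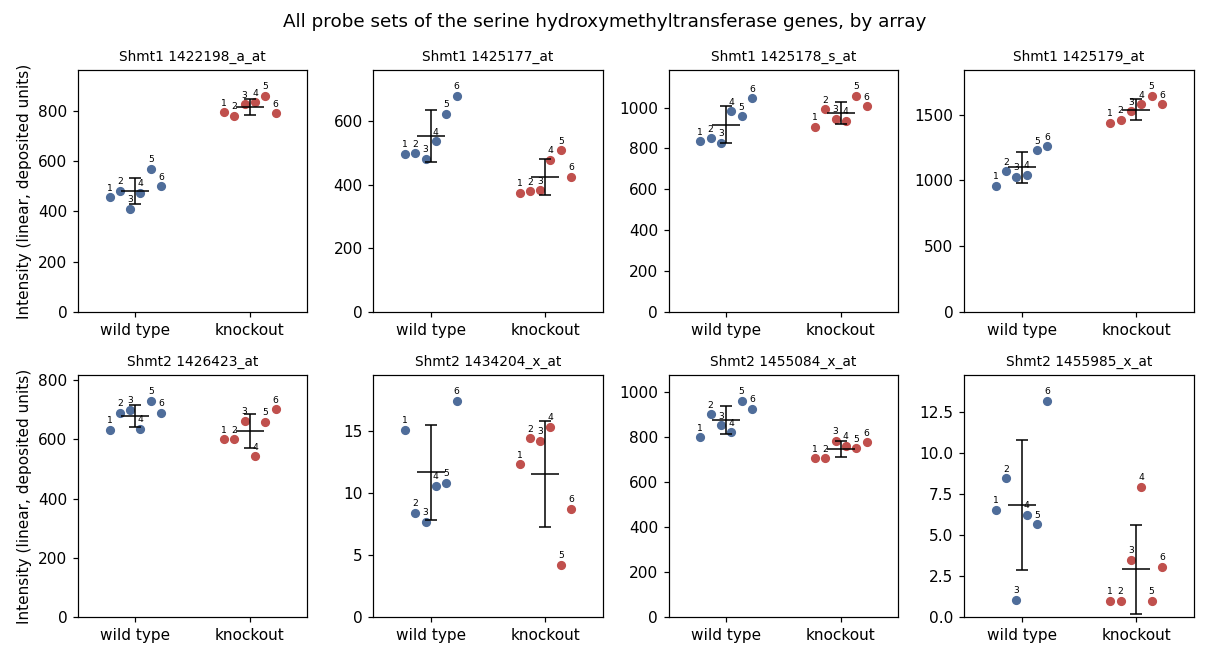
Intensity (linear, deposited units) of the 4 probe sets of Shmt1 (top) and the 4 of Shmt2 (bottom) on each array, with replicate numbers and bars for the mean ± SD of 6 arrays. For Shmt1, 1422198_a_at and 1425179_at are higher in the knockout without overlap while 1425177_at is lower, and 2 of the Shmt2 probe sets stay at 17.4 or less.

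The other enzymes of this family did not pass by their brightest probe sets. Gldc, the decarboxylase of the glycine cleavage system, was at 0.08, with wild-type replicate 2 at 916 and the rest of that group from 663 to 749. Sardh and Dmgdh, which demethylate sarcosine and dimethylglycine in mitochondria, were at -0.08 and 0.06. Their ratio differed by -0.14 (exact permutation p = 0.0195, adjusted 0.0351), a call that was lost when any 1 of 9 arrays was left out. The second probe set of Sardh fell 1.21-fold (adjusted p = 0.0454).

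Of the sulphur amino acid enzymes, Cdo1 fell and Csad did not pass. Cdo1, the cysteine dioxygenase that starts taurine synthesis, ran from 1823 over 2005 to 2153 in the knockout and from 2119.6 over 2258 to 2496 in the wild type. The overlap came from knockout replicate 3 and wild-type replicate 6. Its means were 1984 ± 122 and 2277 ± 129 (SD, n = 6 each), a fall of 1.15-fold (log2 -0.20, SE 0.0545, adjusted p = 0.0334). The call was lost under 9 of 23 alternatives. Csad, the decarboxylase that follows it, was variable in both groups and stood at 0.04 (95% interval -0.17 to 0.26).

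Over all 63 probe sets of the 45 enzymes 13 (20.6%) fell and 2 rose, where 5.15% of the 22626 probe sets fell and 6.82% rose. The enzymes are mostly bright, and many of the 22626 are not. Among the 10755 probe sets with a mean of at least 100, tested alone, 1320 fell and 1685 rose. The 13 also count some genes more than once, as with Mut, and include 1425177_at of Shmt1, a gene called higher. At least 1 falling probe set was found for 12 genes: the 7 named above plus Gpt2, Hibch, Mut, Sardh and Shmt1. Of the 12 genes with several probe sets, 8 had all of theirs on the same side of 0. The median member deviated from the wild-type mean by -0.08 to -0.011 on the knockout arrays and by -0.082 to 0.029 on the wild-type arrays (log2 scale), the lowest being wild-type replicate 2, so the ranges of the groups overlapped.

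Other enzymes of amino acid breakdown, taken from a wider list, moved both ways. Of 40 measured, 5 fell (12.5%) and 1 rose, and their median was 0.005. Over all genes 5.24% fell and 6.46% rose, and over those with a mean intensity of at least 100 the shares were 7.97% and 9.78%. Cth, which makes cysteine from cystathionine, fell 1.35-fold from 1087 ± 65.5 to 804 ± 114 (adjusted p = 0.00831, means ± SD with n = 6). Oat, ornithine aminotransferase, fell 1.29-fold (adjusted p = 0.00996), and Hal, which starts histidine breakdown, 1.2-fold (adjusted p = 0.0252). Mmaa, which serves the cobalamin cofactor of Mut, fell 1.2-fold (adjusted p = 0.00991), and Gch1, the first enzyme of tetrahydrobiopterin synthesis, 1.18-fold (adjusted p = 0.021). Gatm, which makes guanidinoacetate for creatine, rose 1.43-fold from 98.1 ± 16.8 to 147 ± 16.4 (adjusted p = 0.00555, means ± SD with n = 6). Tat and Tdo2, the first enzymes of tyrosine and tryptophan breakdown and both known to respond to glucocorticoids, were at 0.02 (95% interval -0.29 to 0.33) and 0.04 (-0.04 to 0.13).

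Of 24 transporters of amino acids and related metabolites 3 fell (12.5%) and 0 rose (median -0.038), where 5.24% of all genes fell and 6.46% rose. Slc7a2, which carries cationic amino acids into the cell, fell 1.52-fold from 668 ± 63 to 435 ± 57 (adjusted p = 0.00146, means ± SD with n = 6) without overlap. The mitochondrial ornithine carrier gene Slc25a15 and Slc3a1, a subunit of a cystine and cationic amino acid transporter, fell 1.38-fold each (adjusted p = 0.00314 and 0.0323).

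Among 19 genes that regulate this metabolism 5 fell (26.3%) and 3 rose, where 5.24% of all genes fell and 6.46% rose. Klf15, a zinc-finger factor that drives amino acid breakdown in liver and muscle, read 954 to 1276 in the knockout and 1129 to 1546 in the wild type, and did not pass (log2 -0.25, SE 0.0861, adjusted p = 0.0817). Ppara, which encodes the receptor that fenofibrate activates, fell 1.35-fold (adjusted p = 0.00449), Cebpb 1.32-fold (adjusted p = 0.00663) and the glucocorticoid receptor gene Nr3c1 1.17-fold (adjusted p = 0.0296). The coactivator genes Ppargc1a and Ppargc1b fell 2.43-fold and 2.28-fold (adjusted p = 0.0119 and 0.000112). Ppargc1a was dim, with a mean under 100 over all arrays and 21.5 to 42.2 in the knockout, so the size of its fall is less certain. Like Got1, Ppargc1a read highest on wild-type replicates 3 and 5, at 194 and 233, with 54.6 to 105 on the other 4. These 2 arrays were the highest of the wild type for 5.79% of all genes, Gch1, Cth and Slc25a15 among them. A link between Ppargc1a and Got1 was not tested. Hnf4a rose 1.25-fold (adjusted p = 0.0192). Atf4, a factor of the amino acid stress response that acts through the C/EBP-ATF element, rose 1.52-fold (adjusted p = 0.00107), and Nr0b2 (SHP) 2.29-fold (adjusted p = 0.0122).

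Markers of zones and of other cells were set beside these values. For reference, 5.24% of all genes fell and 6.46% rose, or 7.97% and 9.78% of those with a mean intensity of at least 100. Of 7 measured periportal markers outside the 45 enzymes 4 fell (Hal, Aldh1b1, Pck1 and Cps1). Cyp2f2, Arg1 and Cdh1 did not pass, at -0.03, -0.05 and -0.08. The summed intensity of the 7 ran from 19751 to 20916 in the knockout and from 22659 to 25051 in the wild type. Much of that gap is Pck1, with means of 2743 in the knockout and 5182 in the wild type. Of 10 pericentral markers 3 fell (Oat, Cyp1a2 and Rhbg), with sums from 17542 to 19831 and from 18669.5 to 21920.1. Of 10 stellate cell and fibroblast markers 4 rose (Dcn, Ecm1, Reln and Rgs5), with sums from 3503 to 4195 and from 2972 to 3640.3. Of the lists for Kupffer cells and leukocytes (12 genes), endothelial cells (9), cholangiocytes (5), kidney (5) and muscle and adipose tissue (5), 0 markers passed. Of 6 pancreatic genes Cela1 fell 1.16-fold, with 191 to 232 in the knockout and 241 to 267 in the wild type. On that list Ctrb1 read 1470.4 to 1990.0 and Cela2a 151 to 197 over all arrays, while Ins2, Cpa1 and Prss2 read at most 4.11, 5.62 and 18.6, and the sums ran from 1882 to 2398 in the knockout and from 2050.2 to 2139 in the wild type. Of 2 erythroid genes Alas2 fell 1.5-fold. The part of zones and other cells in the enzymes' values was not tested. The values given without wild-type replicates 2 and 5 or replicate 4 are no such test.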

How the data were processed

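Total RNA of 12 livers, 6 Pctp-/- and 6 wild type by their titles, was measured on Affymetrix mouse arrays, 1 liver each. Per the labels' protocols, RNA was extracted with Trizol and labelled as biotinylated cRNA. The authors deposited 1 linear intensity per probe set and array, already scaled between arrays; no source used here names the program. From the authors' deposited table of 727 selected probe sets, the fold (a signed score) and the p-value were set beside the results, and its 24 per-array columns were not used. That table belongs to this same series, so it is no independent support. It held 4 probe sets of 3 of the enzymes, Got1, Hibch and Shmt1. Hgd, Prodh, Aass, Agxt, Shmt2 and Cdo1 were not in it. No 2 arrays were identical, with correlations of 0.985 to 0.994 on the log2 scale.

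The 64 control probe sets were left out and 22626 were compared between genotypes, as log2(intensity + 16), in limma 3.58.1 (lmFit and eBayes, two-sided) in R 4.3.3, with Benjamini-Hochberg adjustment over all of them and a threshold of 0.05. The fit was tested on simulated data. A single symbol was given for 20380 probe sets, more than 1 for 691 and no symbol for 1555. The single-symbol probe set with the highest mean stood for each gene. The constant of 16 understates the change of dim genes. Paired enzymes were compared by exact permutation tests, with adjustment over the 9 of 10 planned pairs that were measured. The members, lists, pairs and alternatives were chosen with earlier results of these data known, and the alternative without wild-type replicates 2 and 5, as well as the one without replicates 3 and 5 for the pairs, after seeing the data. The promoters and motifs shown were also chosen after the results were seen. The rule named all 47 members, each gene of the other lists and markers past the threshold, and Klf15, Ppara, Ppargc1a, Tat and Tdo2; 1 further item is not reported here. Replicates are different animals by the series design, and the number of arrays limits the precision. Figures were drawn with matplotlib 3.10.9 in Python 3.11.15.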

Additional observations from a re-analysis of the deposited data

Results flagged for a closer look

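In 5 of the 90 groups of 6 arrays examined (45 enzymes in each genotype), 1 array lay far from the other 5, where chance gives about 1 in 20. Glud1 read 4822 on knockout replicate 2 and 4338 to 4485 on the other knockout arrays. Gcdh read 1896 on knockout replicate 2 and 1771 to 1813 on the others. Agxt read 1041 on knockout replicate 2 and 1195 to 1244 on the others. Aldh4a1 read 1286 on wild-type replicate 2 and 1489 to 1594 on the others. Gldc read 916 on wild-type replicate 2 and 663 to 749 on the others. Each lay on an array numbered 2, knockout or wild type, and such numbers pair no arrays of the 2 groups.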

How the results depend on the processing

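Against 7 falling enzymes and 1 rising, the alternatives gave 2 to 11 falling and 1 or 2 rising, and Shmt1 rose under each. The lower counts came with fewer arrays, 4 to 8 falling and 1 to 2 rising without 1 array and 3 without wild-type replicates 3 and 5 or 2 and 5, and at a threshold of 0.01 (2 falling). The higher counts were 11 falling and 2 rising among brighter probe sets, where fewer were tested, and at a threshold of 0.1, and 2 rising with a constant of 64 or a trended and robust variance. Over all probe sets, 1165 fell and 1543 rose, against 855 to 1101 and 1132 to 1641 without 1 array, 574 and 694 without wild-type replicates 3 and 5, 715 falling without 2 and 5, 397 and 573 at a threshold of 0.01, and 2315 rising at 0.1. The share of calls that were higher was 57.0% as deposited, 49.2% after quantile normalization and 44.0% after median centring, where the enzymes counted 8 and 9 falling and 1 rising each. The replicate numbers did not pair the arrays: same-numbered arrays correlated between -0.078 and 0.078 in their deviations, and 0 of 6 knockout arrays correlated best with their own number. With the replicate block 6 enzymes fell (Aass and Cdo1 lost, Dbt gained) and 727 probe sets fell. Shmt2 also lost its call as the mean of its probe sets (-0.15). Of the pairs, Sardh to Dmgdh ran from -0.17 to -0.12 without 1 array and was -0.12 without replicates 3 and 5 or 2 and 5. Pcca to Pccb ran from -0.15 to -0.09 without 1 array and passed at -0.15 without wild-type replicate 2 (adjusted p = 0.0311) and at -0.16 without replicates 2 and 5. Got1 to Got2 (-0.76) and Bckdha to Bckdk (-0.25) lost their calls without replicates 3 and 5. Beyond the fewer samples or probe sets, the cause was not tested. Afmid, Kynu and Bcat2, under a mean of 100, are limited by signal over background.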
